A study of Talinum fruticosum with 36 samples.

Results

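The auxin response and transport genes described here were the loci whose annotation held the word auxin or the phrase indole-3-acetic acid inducible, and which had at least 100 counts summed over 30 leaf libraries. Of 21869 Arabidopsis loci in the deposited locus table, 113 matched the wording, and 83 of these reached the count minimum. Another 30 fell below it, 13 of them with no count in any library. Next to the limit, AT4G38825 (104 counts), AT2G45210 (127 counts) and ARF23 (128 counts) were just inside, and IAA20 (58 counts), AT5G20820 (48 counts) and AT5G50760 (35 counts) were just outside. The statistical filter on low values then left 80 of the 83 loci in the tests, and ARF22, ARF23 and AT2G45210 were not tested.

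The study followed Talinum triangulare, a leafy plant that can switch from C3 photosynthesis to crassulacean acid metabolism (CAM), a water-saving mode in which CO2 is taken up at night, when water is withheld. Plants were watered for 28 days and then sampled well-watered (day 0), after 4, 9 and 12 days without water, and after 12 days without water followed by 2 days of re-watering, with leaves taken 6 h into the light phase (midday) and 6 h into the dark phase (midnight). Each of these 10 groups had 3 libraries, which the labels call biological replicates, and the labels give the day 9 and day 12 plants the CAM mode and the other plants the C3 mode. No genotype was given in the labels, and no plants were kept watered until the later days, so drought, plant age and sampling day cannot be told apart. Whole leaves were used, so fewer cells of a type and less RNA per cell cannot be told apart either.

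Auxin is a plant hormone that moves from cell to cell and sets growth and patterning. Carriers of the AUX1/LAX family take it into cells, PIN proteins export it, and PILS proteins hold it in the endoplasmic reticulum. Inside the nucleus, auxin joins F-box receptors of the TIR1/AFB family to Aux/IAA repressors, which are then broken down, and this releases auxin response factors (ARFs), the transcription factors that switch auxin target genes on or off. Among early targets are GH3 enzymes, which bind the hormone to amino acids, and SAUR genes, many of which act in cell expansion. These roles are known from Arabidopsis. The Talinum reads were counted at the Arabidopsis protein they matched best, so each locus value can hold reads from several Talinum genes, and reads from 1 Talinum gene can be spread over close Arabidopsis relatives.

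The libraries held 4266915 to 8756533 counts, of which the 83 loci took 0.112 to 0.394%. Scaling factors between libraries (TMM, the trimmed mean of M values) spanned 0.718 to 1.33, the lowest and the highest both on day 0, at midday and at midnight. Levels are given as CPM, counts scaled to the library total and then by this factor, and a level of 3 counts, the limit that a count of 0 allows, came to 0.343 to 0.703 CPM before it. Of 5 leaf mesophyll markers 3 were in the table, and together they had 20020.5 to 121907 CPM in every library. Day 0 midnight replicate 3 and re-watered midday replicate 3 correlated least with their own groups (mean r = 0.963 and 0.962 across loci). Day 0 midday replicate 2 and re-watered midday replicate 1 were close, both at 0.964. Counts without both libraries of lowest correlation are given beside the results they move. The groups compared had 3 libraries each, for which the smallest exact permutation p of 1 locus is 0.1, so calls rest on the edgeR quasi-likelihood test across 14052 loci, two-sided, at an adjusted p under 0.05 (Benjamini-Hochberg). Fold changes are log2 values with their standard error (SE).

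On day 9 more auxin loci were called lower than higher, and many were not called. At midday 47 of the 80 tested loci were called, 16 higher and 31 lower, where 44.5% of all loci were called, 23.4% higher and 21% lower. The median log2 fold change of the auxin loci was -0.23 at midday, and that of all loci was 0.05. At midnight 38 auxin loci were called on day 9, 13 higher and 25 lower, where 48.6% of all loci were called, 23.2% higher and 25.4% lower. The auxin median was then -0.36 and that of all loci 0.01. Day 12 leaves had 52 auxin loci called at midday, 19 higher and 33 lower, against a background of 55% of all loci, 29.3% higher and 25.7% lower. The medians were -0.81 for auxin loci and 0.08 for all loci. At midnight on day 12, 50 auxin loci were called, 20 higher and 30 lower, where 57.6% of all loci were called (27.8% higher and 29.8% lower), with medians of -0.22 for auxin loci and 0.01 for all loci. The share of tested auxin loci called was 58.8% at midday and 47.5% at midnight on day 9, and 65% at midday and 62.5% at midnight on day 12. It stood above the share of all loci at midday on both days, and close to it at midnight on day 9. The excess of lower calls was smaller with a filter of 5 CPM in 3 libraries, and it was gone at midnight on day 12. That filter gave 14 higher and 17 lower calls at midday and 12 higher and 16 lower at midnight on day 9, and 18 higher and 20 lower at midday and 17 higher and 16 lower at midnight on day 12. It takes low loci out of the tests. Over all 17 contrasts, among auxin calls whose loci stayed in, 417 were kept and 1 was lost. Under this filter 5769 of all loci were called at midday on day 9, and 7280 at midnight on day 12. The 4 comparisons of days 9 and 12 with day 0 share the day 0 libraries within each time of day.

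In day 4 leaves no auxin locus was called. At midday none of the auxin loci and 0% of all loci were called by edgeR, and 6 auxin loci had an unadjusted p under 0.05. At midnight no auxin locus was called, against 0.185% of all loci (0.0498% higher and 0.135% lower), and 14 auxin loci had an unadjusted p under 0.05. DESeq2 called 1 auxin locus at midnight and 0 at midday. The midnight count was 4 without re-watered midday replicate 3 and 2 without day 0 midnight replicate 3. It was 1 without day 12 midnight replicate 1, day 12 midnight replicate 2 or re-watered midday replicate 1. Without both libraries of lowest correlation it was 7.

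**Figure D1:**
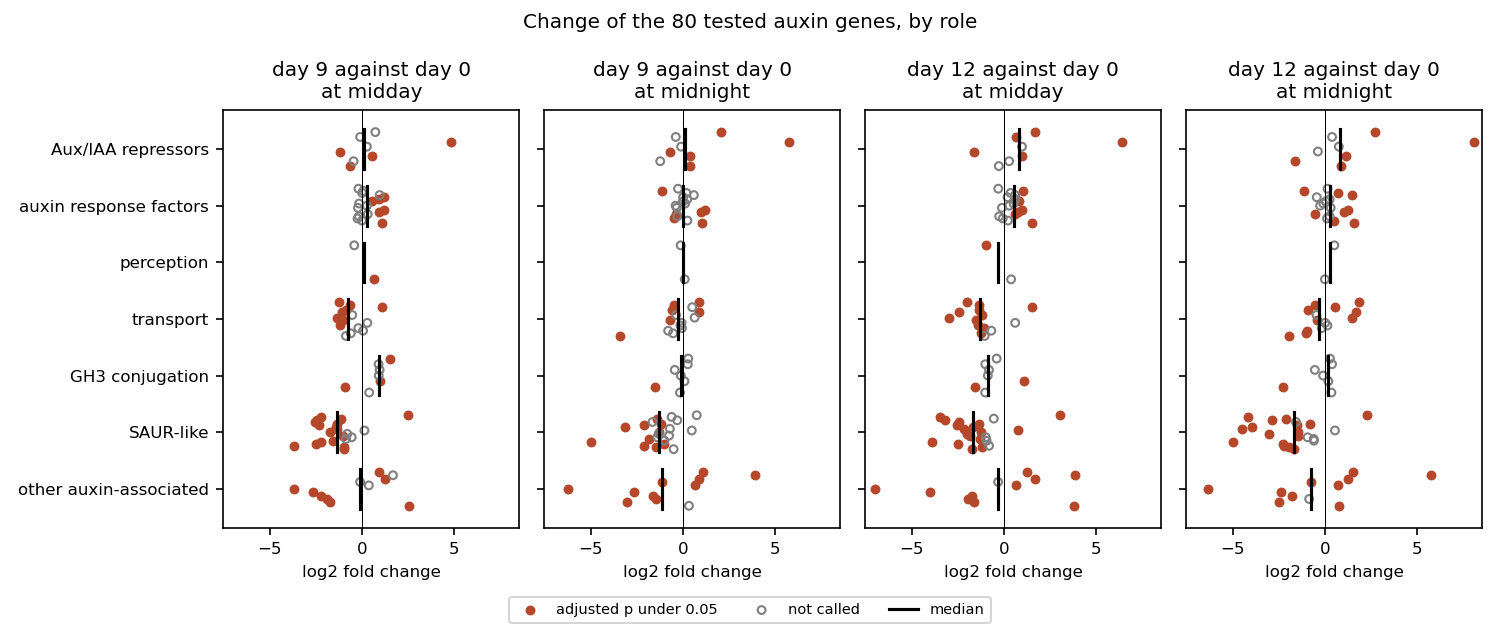
Log2 fold change against day 0 (x axis) of each tested auxin locus by role (y axis), in 4 panels for day 9 and day 12 at midday and at midnight. Filled points were called by edgeR, open points were not, and black bars are role medians. Those of the SAUR-like loci lie on the negative (left) side, at -1.36 and -1.30 on day 9 at midday and midnight.

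Calls are given by role beside the background on day 9, when 23.4% of all loci were higher and 21% lower at midday, and 23.2% higher and 25.4% lower at midnight. The 21 tested SAUR-like loci gave 16 lower and 1 higher call at midday on day 9, and 10 lower and 0 higher at midnight. The 17 tested ARF loci gave 6 higher and 0 lower calls at midday, and 3 of each at midnight. The 14 transport loci gave 7 lower and 1 higher calls at midday, and 4 lower and 2 higher at midnight, the lower calls at midnight being near the background share. On day 12, 29.3% of all loci were higher and 25.7% lower at midday, and 27.8% higher and 29.8% lower at midnight. The SAUR-like loci then gave 15 lower and 2 higher calls at midday and 15 lower and 1 higher at midnight. ARF loci gave 6 higher and 0 lower calls at midday and 6 higher and 2 lower at midnight, the higher calls being little above the background shares. Transport loci gave 1 higher and 10 lower at midday and 4 higher and 6 lower at midnight, the higher calls at midnight being near the background share. Differences between roles were not tested.

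Of the 8 tested Aux/IAA repressors, which hold ARFs inactive when auxin is low, 2 were higher and 2 lower at midday on day 9, and 4 were higher and 1 lower at midnight. The midday shares were near the background of 23.4% higher and 21% lower. On day 12 it was 4 higher and 1 lower at each time, where 29.3% of all loci were higher and 25.7% lower at midday. At midnight the shares of all loci were 27.8% and 29.8%. IAA15 is among the higher calls in each of these comparisons, here and in the counts of all auxin loci. IAA5 is among them too, except at midday on day 9. The calls of both are a description only, for the reason given with their values below. The median of the group on day 9 was 0.08 at midday and 0.13 at midnight.

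IAA9 moved in opposite directions by day and by night on day 9. At midday it had 31.7, 35.8 and 38.3 CPM on day 9, against 52.2, 53.1 and 60.0 CPM on day 0. At midnight the levels were 90.2, 95.7 and 81.1 CPM on day 9 and 68.7, 80.6 and 60.0 CPM on day 0. Day 9 libraries lay below all day 0 libraries at midday and above them all at midnight. The log2 fold change was -0.64 ± 0.14, adjusted p = 0.000432 at midday and 0.35 ± 0.13, adjusted p = 0.0291 at midnight. The midnight call was lost without day 0 midnight replicate 1 or 3 or day 9 midnight replicate 1 or 2, with an adjusted p of up to 0.233. The midnight level on day 12 reached 126, 128 and 121 CPM (0.84 ± 0.13, adjusted p = 5.35e-06). At midday on day 12 IAA9 was not called, with a log2 fold change of -0.28. It then averaged 45.5 ± 9.43 CPM, against 55.1 ± 4.30 CPM on day 0 (SD, n = 3 each).

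IAA2 had 9.82, 12.3 and 14.3 CPM at midday on day 9, against 27.2, 26.5 and 29.7 CPM on day 0, with no overlap (-1.19 ± 0.29, adjusted p = 0.00151). At midnight its day 9 call (-0.69 ± 0.29, adjusted p = 0.0483) rested on overlapping libraries and was lost without any 1 of 18 of the 30 libraries, with an adjusted p of up to 0.277. The midday fold change on day 12 was -1.61 ± 0.30, adjusted p = 5.66e-05.

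IAA15 was at or near 0 in every watered and re-watered library and was counted in every drought library of days 9 and 12. It had 39 counts at midday and 23 at midnight on day 9, and 112 at midday and 136 at midnight on day 12, so it reached the minimum of 100 counts only through the groups where it is high, and its values are a description. Midday levels on day 9 were 1.55, 1.88 and 2.56 CPM, against 0, 0 and 0.174 CPM on day 0, which is 39 counts against 1 count. The ratio was 36.41, with a 95% counting interval of 6.16 to 1470. At midnight on day 9 the levels were 1.43, 0.536 and 0.804 CPM, with 0 counts in the 3 day 0 libraries, so the level was at least 7.709-fold higher, taking 3 counts over the day 0 group as the limit. On day 12 the midday levels were 6.77, 4.67 and 7.15 CPM, and at midnight 1.81, 1.2 and 10.7 CPM, at least 42.29-fold higher than on day 0. Replicate 3 carried most of that midnight sum. After re-watering 1 of the 6 libraries held a count.

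IAA5 had 3.46, 0.804 and 2.87 CPM at midnight on day 9, against 0.223, 0.996 and 0.577 CPM on day 0. Day 9 midnight replicate 2 fell within the day 0 range and the other two day 9 libraries lay above it. Its log2 fold change was 2.04 ± 0.54, adjusted p = 0.00304, and at midday on day 9 it was 0.72 ± 0.57, adjusted p = 0.32. IAA11 was called higher at both times on day 9 (0.51 ± 0.17 at midday and 0.40 ± 0.15 at midnight). The adjusted p of these calls was 0.0147 at midday and 0.0279 at midnight, and the calls were lost without day 0 midday replicate 3 or day 9 midday replicate 2 (up to 0.0926), and without day 0 midnight replicate 3 or day 9 midnight replicate 2 (up to 0.237). On day 12 IAA11 reached 46.3, 45.9 and 47.1 CPM at midnight, against 24.8, 21.6 and 15.6 CPM on day 0, with every day 12 library above every day 0 library (1.17 ± 0.15, adjusted p = 1.74e-07).

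Among Aux/IAA loci that carry no auxin wording in the table, 8 were tested. At midday on day 9, 5 of them were lower and 1 higher, and at midnight 3 were lower and 3 higher. Of all loci, 23.4% were higher and 21% lower at midday, and 23.2% higher and 25.4% lower at midnight. IAA27 averaged 30.7 ± 8.81 CPM at midday on day 9 and 62.2 ± 2.11 CPM on day 0 (SD, n = 3 each), a log2 fold change of -1.01 ± 0.17 (edgeR adjusted p = 1.94e-05). IAA7 averaged 112 ± 24.7 CPM on day 9 and 209 ± 28.6 CPM on day 0 at midday (-0.90 ± 0.17, adjusted p = 0.00014).

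The ARFs, which bind auxin response elements in promoters, were led by ARF2, a repressor class ARF tied in Arabidopsis to leaf ageing and organ size. At midday ARF2 had 401, 359 and 420.3 CPM on day 9, against 177, 179.7 and 199 CPM on day 0. At midnight it had 533, 623 and 565 CPM on day 9 and 339.9, 239.8 and 265 CPM on day 0. Day 9 lay above day 0 in every library at both times. The log2 fold change was 1.09 ± 0.15, adjusted p = 9.39e-07 at midday and 1.03 ± 0.14, adjusted p = 1.78e-06 at midnight, and on day 12 it was 1.51 ± 0.15 at midday and 1.55 ± 0.15 at midnight, with adjusted p of 2.02e-09 and 1.28e-09.

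ARF11 and ARF9, of the same repressor class in Arabidopsis, rose at both times too. ARF11 had 38.4, 34.2 and 37 CPM at midday on day 9, against 18.1, 14.4 and 16.1 CPM on day 0 (1.17 ± 0.18, adjusted p = 8.37e-06). At midnight ARF11 had 48.8, 44.9 and 47.9 CPM on day 9, against 24.8, 18.4 and 18.8 CPM on day 0 (1.19 ± 0.17, adjusted p = 3.07e-06). Neither time showed an overlap for ARF11. ARF9 averaged 54.3 ± 5.01 CPM at midday on day 9 and 29.1 ± 2.8 CPM on day 0 (SD, n = 3 each), with a fold change of 0.90 ± 0.15, adjusted p = 1.96e-05. At midnight ARF9 averaged 70.5 ± 4.44 CPM on day 9 and 35.9 ± 3.72 CPM on day 0 (0.97 ± 0.14, adjusted p = 3.87e-06).

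ARF1, also a repressor, was called at midday and not at midnight on day 9. It had 128, 119 and 131 CPM at midday on day 9, against 74.6, 91.4 and 90.4 CPM on day 0, without overlap (0.56 ± 0.12, adjusted p = 0.000385). At midnight the levels were 112, 112 and 111 CPM on day 9 and 130.4, 101 and 104 CPM on day 0, which overlapped (-0.00 ± 0.12, adjusted p = 0.976). ARF5 (MONOPTEROS), an activator known from vein formation, fell at midnight to 5.97, 4.42 and 9.31 CPM on day 9, against 24.7, 8.4 and 10.5 CPM on day 0 (-1.15 ± 0.28, adjusted p = 0.00157), although the groups overlapped and day 0 midnight replicate 1 was far above its group. On day 12 ARF5 was -1.15 ± 0.28 at midnight (adjusted p = 0.00112) and 1.05 ± 0.37 at midday (adjusted p = 0.0179). The midday call was lost without day 0 midday replicate 1 or day 12 midday replicate 2, with an adjusted p of up to 0.0816. ARF12 and ARF20, called higher at midday on day 9, belong to a cluster of close copies in Arabidopsis, so reads may be divided among them.

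Only 2 loci of the perception role carry auxin wording. ABP1, an auxin binding protein, had 19.1, 20.7 and 26.6 CPM at midday on day 9, against 11.5, 15.9 and 15.7 CPM on day 0 (0.63 ± 0.20, adjusted p = 0.0131). The 2 groups did not overlap, but the call was lost without day 0 midday replicate 1 or day 9 midday replicate 3 (adjusted p up to 0.0885). AFB3, an F-box auxin receptor, was not called on day 9 and had 1.5, 1.66 and 1.75 CPM at midday on day 12, against 3.82, 3.4 and 2.62 CPM on day 0 (-0.99 ± 0.36, adjusted p = 0.0207). That call was lost without day 0 midday replicate 1 or day 12 midday replicate 1, with an adjusted p of up to 0.0762. Of 14 further loci for receptors, SCF subunits, surface kinases and TOPLESS corepressors, 4 were higher and 3 lower at midday on day 9, and 1 was higher and 5 lower at midnight. The shares of all loci were 23.4% higher and 21% lower at midday, and 23.2% higher and 25.4% lower at midnight. Both midday shares were near this background. TMK1, a receptor kinase of auxin signalling at the cell surface, averaged 27.7 ± 5.21 CPM at midday on day 9 and 87.6 ± 23.6 CPM on day 0 (-1.66 ± 0.17, adjusted p = 9.91e-09). TMK4 of the same kinase family averaged 25.1 ± 2.71 CPM on day 9 and 60.4 ± 12.7 CPM on day 0 (-1.26 ± 0.16, adjusted p = 3.2e-07). The corepressor TPR3 averaged 105 ± 1.36 CPM at midday on day 9 and 58.5 ± 8.69 CPM on day 0 (0.84 ± 0.17, adjusted p = 0.000269).

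Among carriers at the plasma membrane LAX1, LAX2 and PIN7 were lower at midday on day 9, while PIN2 (-0.61 ± 0.28, adjusted p = 0.0764) and PIN4 (-0.53 ± 0.28, adjusted p = 0.127) did not pass the test. The influx carrier LAX1 had 7.23, 14.2 and 10.6 CPM at midday on day 9, against 21, 25.2 and 27 CPM on day 0, with no overlap (-1.18 ± 0.19, adjusted p = 1.96e-05). At midnight LAX1 had 24.8, 25.2 and 21.8 CPM on day 9 and 28.9, 23.8 and 26.6 CPM on day 0, with overlap (-0.14 ± 0.18, adjusted p = 0.528). LAX2, a second influx carrier, had 9.13, 15 and 10.3 CPM at midday on day 9, against 22.9, 23.8 and 25.5 CPM on day 0 (-1.05 ± 0.18, adjusted p = 3.36e-05). LAX2 was also lower at midnight, with 20.5, 21 and 18.3 CPM on day 9 and 30.4, 28.2 and 37.9 CPM on day 0 (-0.69 ± 0.17, adjusted p = 0.00133).

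PIN7, an efflux carrier, had 7.41, 15.3 and 12.5 CPM at midday on day 9, against 21.8, 13.9 and 19.9 CPM on day 0 (-0.64 ± 0.21, adjusted p = 0.0135). At midnight it had 33.9, 43.2 and 36.7 CPM on day 9, against 51.7, 45.7 and 60.0 CPM on day 0 (-0.47 ± 0.18, adjusted p = 0.0354). The groups overlapped at midday and did not at midnight. The midday call was lost without day 0 midday replicate 1 or day 9 midday replicate 1 (up to 0.114), and the midnight call without day 0 midnight replicate 3 or day 9 midnight replicate 1 or 3 (up to 0.143). On day 12 the midday fold change of PIN7 was -1.36 ± 0.22, adjusted p = 9.17e-06.

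PILS carriers of the endoplasmic reticulum differed among themselves. PILS1 had 2.58, 4.97 and 6.73 CPM at midday on day 9, against 14.3, 9.54 and 10.8 CPM on day 0 (-1.27 ± 0.35, adjusted p = 0.00451). At midnight PILS1 had 39.7, 68.9 and 41.8 CPM on day 9, against 24, 28.6 and 30.9 CPM on day 0 (0.85 ± 0.27, adjusted p = 0.0118). The drought libraries were thus all below day 0 at midday and all above it at midnight. The midnight call was lost without day 0 midnight replicate 1 or day 9 midnight replicate 2, with an adjusted p of up to 0.177. The gap was wider on day 12, with 4.7, 2.56 and 1.75 CPM at midday and 114, 79.6 and 102 CPM at midnight (-1.97 ± 0.38, adjusted p = 9.53e-05 at midday and 1.83 ± 0.27, adjusted p = 3.27e-06 at midnight, each against day 0).

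PILS3 followed the same course, with 1.03, 2.28 and 3.85 CPM at midday on day 9, against 7.16, 4.37 and 3.84 CPM on day 0 (-1.09 ± 0.40, adjusted p = 0.0298). At midnight it had 23, 26.7 and 20.6 CPM on day 9, against 9.69, 11.8 and 17 CPM on day 0 (0.87 ± 0.28, adjusted p = 0.0125). The midday groups overlapped by a narrow margin and the midnight groups did not. These day 9 calls were lost without day 0 midday replicate 1 or day 9 midday replicate 1 or 2 (up to 0.183), and without day 0 midnight replicate 1 or day 9 midnight replicate 2 (up to 0.105). On day 12 PILS3 was -2.44 ± 0.49, adjusted p = 0.00014 at midday and 1.69 ± 0.28, adjusted p = 1.12e-05 at midnight. PILS5 on day 12 had 0, 0.452 and 0.318 CPM at midday, against 1.91, 2.75 and 2.09 CPM on day 0 (-2.97 ± 0.64, adjusted p = 0.000342), and 14.4, 11.3 and 10.5 CPM at midnight, against 3.68, 5.12 and 4.27 CPM (1.47 ± 0.31, adjusted p = 0.000273). On day 9 PILS5 was called at midday (-1.36 ± 0.50, adjusted p = 0.0301) and not at midnight (0.63 ± 0.33, adjusted p = 0.112). The midday call was lost without day 0 midday replicate 2 or day 9 midday replicate 1 or 2 (up to 0.135). PILS1, PILS3 and PILS5 are close relatives, and only PILS3 among them was the best match of a deposited contig, so reads of 1 Talinum gene may be spread over all 3. PILS2 went the other way at midday, with 21.9, 23.8 and 22.9 CPM on day 9, against 6.36, 15.7 and 9.95 CPM on day 0 (1.10 ± 0.24, adjusted p = 0.000498). PILS6 was not called on day 9 at midday (-0.20 ± 0.35, adjusted p = 0.672) or midnight (-0.06 ± 0.31, adjusted p = 0.894). PILS7 had 0.477, 0 and 0 CPM at midnight on day 9, against 1.11, 3.13 and 1.61 CPM on day 0, lower in every library at levels of a few counts (-3.41 ± 0.92, adjusted p = 0.00343), and was not called at midday (-0.87 ± 0.76, adjusted p = 0.366).

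**Figure D2:**
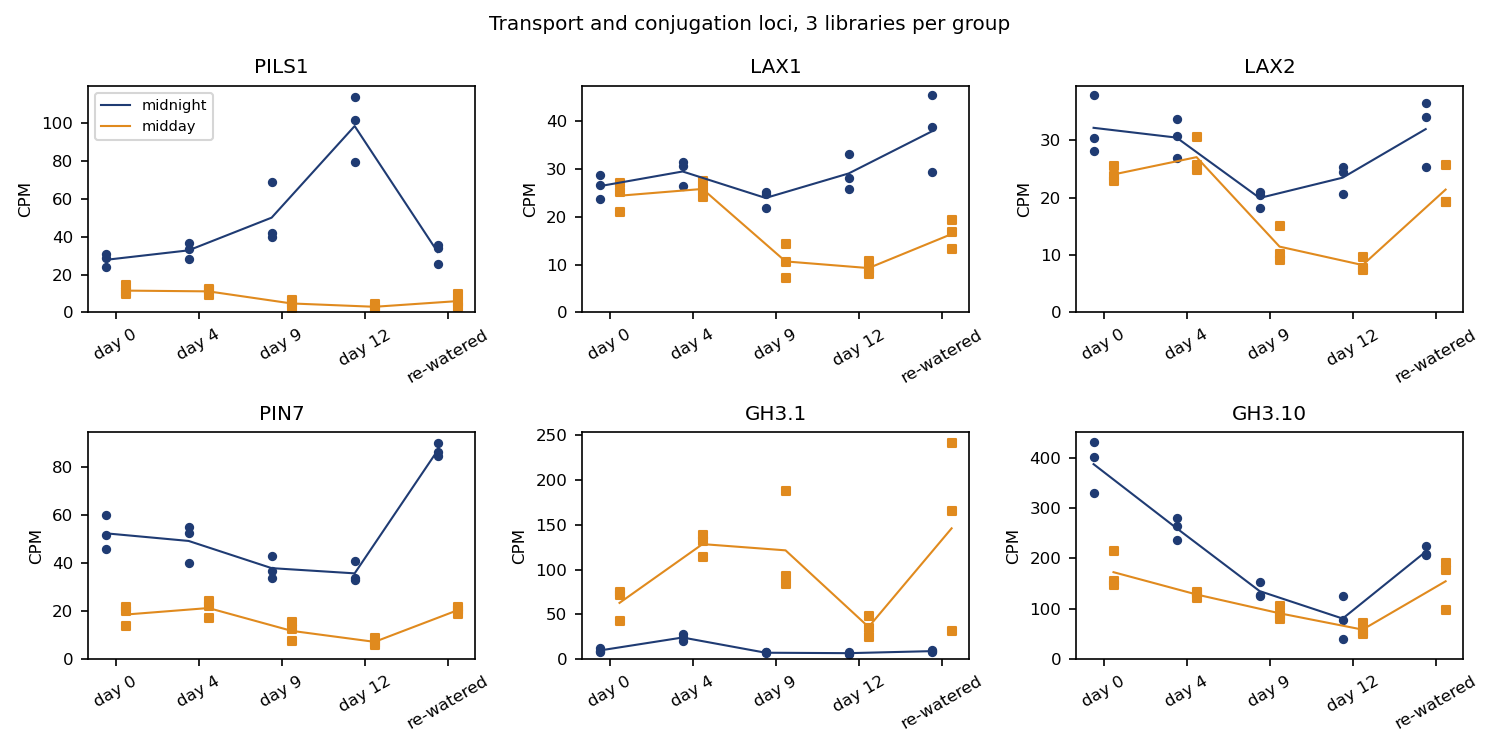
CPM of each library (y axis, linear) by stage (x axis: days 0, 4, 9 and 12 of drought and re-watered) for 4 carriers and 2 GH3 loci, with midnight as blue circles, midday as orange squares and lines through the means of 3 libraries. PILS1 separates by time of day on day 12 (79.6 to 114 CPM at midnight and 1.75 to 4.7 CPM at midday), and GH3.1 is higher at midday than at midnight at every stage.

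Of 9 transport loci without auxin wording that were tested, 5 were lower and 0 higher on day 9 at each time of day. Of all loci, 21% were lower and 23.4% higher at midday, and 25.4% lower and 23.2% higher at midnight. ABCB19, an exporter of the ABC class, averaged 12.9 ± 1.63 CPM at midday on day 9 and 54.1 ± 5.91 CPM on day 0 (-2.06 ± 0.20, adjusted p = 7.75e-09). WAT1, a tonoplast auxin transporter, averaged 23.8 ± 1.97 CPM at midday on day 9 and 70.6 ± 12.2 CPM on day 0 (-1.57 ± 0.18, adjusted p = 7.36e-08). The importer AUX1 averaged 15.0 ± 4.80 CPM on day 9 and 25.2 ± 2.58 CPM on day 0 at midday (-0.74 ± 0.21, adjusted p = 0.00543).

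Of the 7 GH3 loci, 2 were higher and 1 lower at midday on day 9, and 0 were higher and 1 lower at midnight. The shares of all loci were 23.4% higher and 21% lower at midday, and 23.2% higher and 25.4% lower at midnight. The higher calls at midday were thus near the background, and the lower calls were not above it. GH3.10, a member whose role in auxin turnover is less clear, had 78.7, 88 and 106 CPM at midday on day 9, against 148, 155 and 215 CPM on day 0 (-0.93 ± 0.26, adjusted p = 0.00583). At midnight it had 124, 153 and 127 CPM on day 9, against 329.6, 402 and 431 CPM on day 0 (-1.52 ± 0.26, adjusted p = 3.53e-05). There was no overlap at either time, and by day 12 the log2 fold change was -1.56 ± 0.27, adjusted p = 2.29e-05 at midday and -2.27 ± 0.27, adjusted p = 9.19e-08 at midnight. JAR1, which joins jasmonic acid rather than auxin to an amino acid, had 109, 109.5 and 140.1 CPM at midday on day 9, against 42.9, 78.6 and 59.7 CPM on day 0 (0.98 ± 0.23, adjusted p = 0.00129), and at midnight its groups overlapped (0.08 ± 0.23, adjusted p = 0.8).

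GH3.1, an enzyme that conjugates auxin itself, had 188, 93 and 83.8 CPM at midday on day 9, against 75.1, 42.1 and 71 CPM on day 0. All day 9 libraries were above day 0, yet the spread was wide and the locus was not called (0.95 ± 0.43, adjusted p = 0.0737). GH3.17 was called at midday on day 9 with 9.3, 3.49 and 3.53 CPM, against 1.43, 0.97 and 3.32 CPM on day 0 (1.5 ± 0.52, adjusted p = 0.0215), a call lost without day 0 midday replicate 1 or 2 or day 9 midday replicate 1 (up to 0.208). Of 8 other loci for auxin conjugation and turnover, 5 were higher and 1 lower at midday on day 9, and 2 were higher and 1 lower at midnight. Against the shares of all loci given above, the higher calls at midnight were near the background. ILL3, of the family that frees auxin from its amino acid conjugates, averaged 54.8 ± 7.68 CPM at midday on day 9 and 16.8 ± 1.62 CPM on day 0 (1.71 ± 0.14, adjusted p = 1.93e-10). DAO2, of the family that oxidises auxin, averaged 20.2 ± 0.626 CPM on day 9 and 4.85 ± 3.171 CPM on day 0 (2.05 ± 0.41, adjusted p = 0.000252).

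Synthesis genes carry no auxin wording in the table. Of 13 tested, 5 were higher and 2 lower at midday on day 9, where 23.4% of all loci were higher and 21% lower. At midnight 2 were higher and 3 lower, where 23.2% of all loci were higher and 25.4% lower, so neither midnight share stood above the background. AMI1, an amidase that can form auxin from indole-3-acetamide, averaged 67.2 ± 2.96 CPM at midday on day 9 and 16.7 ± 3.15 CPM on day 0 (2.01 ± 0.16, adjusted p = 2.22e-10). The flavin monooxygenase YUC11, of the family for the last step of the main synthesis route, averaged 19.9 ± 2.61 CPM on day 9 and 3.27 ± 0.928 CPM on day 0 (2.61 ± 0.28, adjusted p = 3.84e-08). At midnight TAR2, an aminotransferase of the step before it, averaged 3.83 ± 0.546 CPM on day 9 and 9.29 ± 2.63 CPM on day 0 (-1.26 ± 0.22, adjusted p = 2.7e-05).

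The SAUR-like loci had low medians at both times. On day 9 the median log2 fold change of the 21 tested was -1.36 at midday and -1.30 at midnight, and on day 12 it was -1.70 and -1.69, while the medians of all loci lay between 0.01 and 0.08. Of the 21, 16 were called lower at midday on day 9, where 21% of all loci were, and 10 at midnight, where 25.4% were. On day 12, 15 were called lower at each time, where 25.7% of all loci were at midday and 29.8% at midnight. AT4G38825 is in each of these counts, as a description only.

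AT4G38860 had 1.72, 2.01 and 4.01 CPM at midday on day 9, against 16.1, 12.3 and 14.7 CPM on day 0, with no overlap (-2.47 ± 0.38, adjusted p = 7.08e-06). Its midnight call (-1.02 ± 0.36, adjusted p = 0.0197) was lost without day 0 midnight replicate 2 or day 9 midnight replicate 1 (up to 0.0988). AT2G24400 fell at midnight, with 0.955, 0.536 and 0.689 CPM on day 9, against 4.57, 7.83 and 7.5 CPM on day 0 (-3.14 ± 0.29, adjusted p = 2.04e-09). At midday AT2G24400 had 2.07, 2.28 and 1.6 CPM on day 9 and 5.41, 4.85 and 5.76 CPM on day 0 (-1.41 ± 0.27, adjusted p = 0.00012), again without overlap.

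AT2G21220 had 1.38, 0.671 and 1.44 CPM at midday on day 9, against 6.84, 6.15 and 4.54 CPM on day 0 (-2.34 ± 0.41, adjusted p = 3.83e-05). AT3G03820 had 1.89, 2.68 and 2.4 CPM at midday on day 9, against 7.16, 7.44 and 9.25 CPM on day 0 (-1.75 ± 0.34, adjusted p = 0.000128). Both were separated from day 0 in every library, at levels of a few CPM. AT1G16510 was the exception among the calls at midday on day 9, with 14.6, 9.13 and 6.57 CPM on day 9, against 0.795, 3.23 and 1.22 CPM on day 0 (2.51 ± 0.57, adjusted p = 0.000922). It stayed called on day 12, at 3.01 ± 0.56 at midday (adjusted p = 7.11e-05) and 2.26 ± 0.54 at midnight (adjusted p = 0.00092), and at midnight on day 9 it was 0.74 ± 0.59, adjusted p = 0.314.

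**Figure D3:**
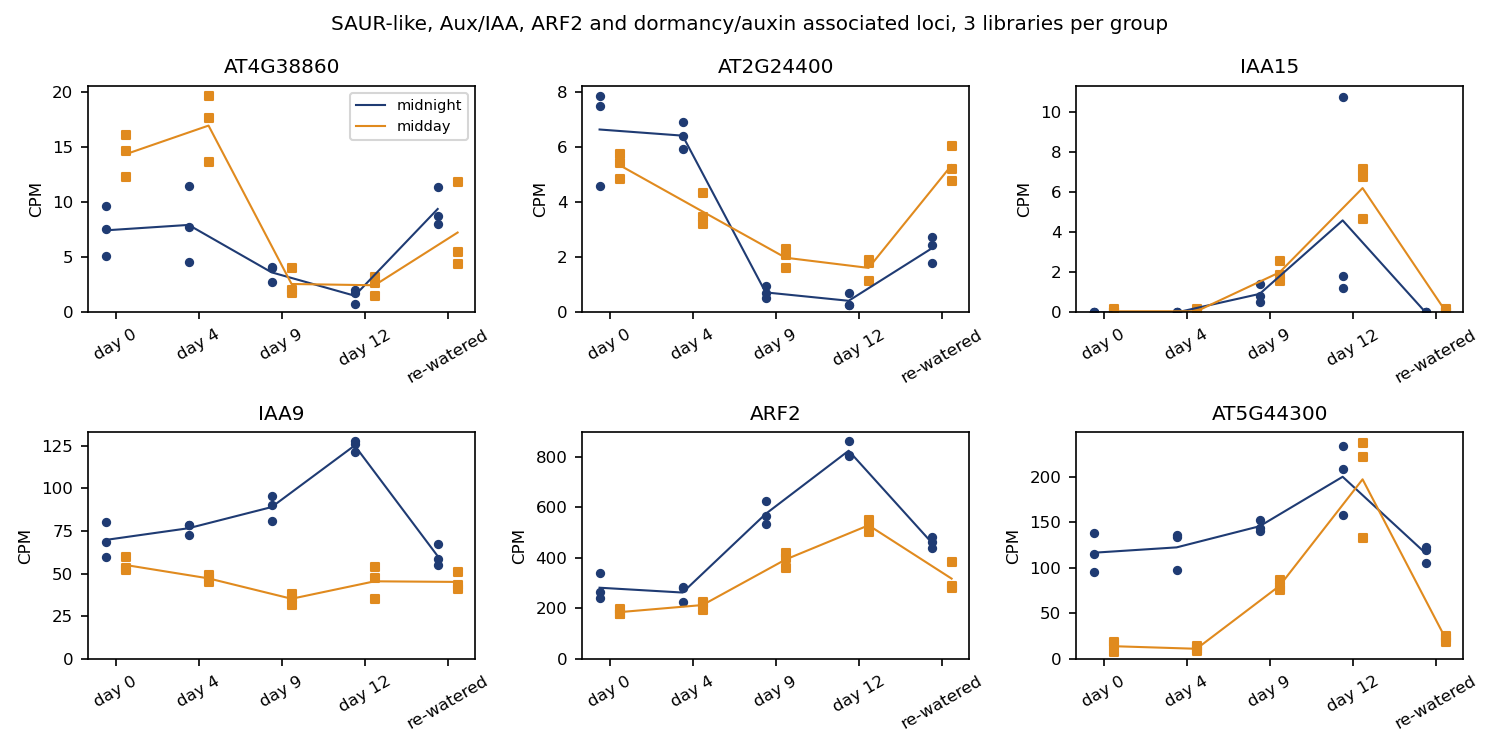
CPM of each library (y axis, linear) by stage (x axis) for SAUR-like AT4G38860 and AT2G24400, repressors IAA15 and IAA9, ARF2 and AT5G44300, with midnight as blue circles, midday as orange squares and lines through the means of 3 libraries. ARF2 is highest on day 12 (802 to 861 CPM at midnight), IAA15 is counted almost only on days 9 and 12, and AT2G24400 is at or below 0.955 CPM at midnight on both of those days.

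Markers of dividing cells were lower beside the SAUR-like loci. Of 6 such markers 4 were in the table, and 3 were called lower and 0 higher on day 9 at each time. Their summed level was 13.3 to 22.6 CPM at midday on day 9, against 33.6 to 110 CPM on day 0, and 12.9 to 14.1 CPM at midnight on day 9, against 21.1 to 32.1 CPM on day 0. Of 9 vascular markers 8 were in the table, with 1 higher and 4 lower at midday on day 9, and 1 higher and 5 lower at midnight. Their sum at midnight was 433 to 485 CPM on day 9, against 722 to 915 CPM on day 0, and at midday it was 656 to 807 CPM on day 9, against 682 to 846 CPM on day 0. Of 7 guard cell markers 6 were in the table, with 1 higher and 4 lower at midday on day 9, and 1 higher and 2 lower at midnight. Their sum was 33.3 to 49.8 CPM at midday on day 9, against 46.4 to 57.9 CPM on day 0, and 80.9 to 124 CPM at midnight on day 9, against 43.3 to 63.5 CPM on day 0. The higher midnight sum came from GORK, a potassium channel, at 62.7 ± 25.5 CPM on day 9 and 6.59 ± 0.521 CPM on day 0 (SD, n = 3 each), while ALMT12 and HT1 were called lower and MYB60, FAMA and SLAC1 were not called. Of the 3 mesophyll markers counted, 2 were lower and 0 higher at midday on day 9, and 1 lower and 0 higher at midnight. Their sum was 43190.6 to 47809.9 CPM at midday on day 9, against 67432.1 to 121907 CPM on day 0, and 26054.2 to 35928.7 CPM at midnight on day 9, against 23737.1 to 49626.2 CPM on day 0. LHCB3, a light-harvesting protein, averaged 2913 ± 455 CPM on day 9 and 10775 ± 2262 CPM on day 0 at midday, and was called lower at both times. Of 3 epidermal markers only FDH had counts, and PDF1 was at 0 in all libraries. Beside these counts, 23.4% of all loci were higher and 21% lower at midday on day 9, and 23.2% higher and 25.4% lower at midnight. The part of the cell type markers in the auxin results was not tested.

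Of 11 further loci with auxin wording, 3 were higher and 5 lower at midday on day 9, and 4 were higher and 6 lower at midnight. The shares of all loci were 23.4% higher and 21% lower at midday, and 23.2% higher and 25.4% lower at midnight. The higher calls at midday were near this background. AT5G44300, of the dormancy and auxin associated family, had the smallest adjusted p of all 80 loci at midday on day 9. It had 78.9, 75.3 and 86.4 CPM on day 9, against 7.32, 18.4 and 16.2 CPM on day 0 (2.52 ± 0.26, adjusted p = 1.5e-08). At midnight it had 141, 152 and 144 CPM on day 9, against 115, 138 and 95.7 CPM on day 0, just above it in every library but not called (0.32 ± 0.23, adjusted p = 0.252). By day 12 it had 222, 132 and 237 CPM at midday, which overlapped the 234, 158 and 208 CPM at midnight. The members whose log2 group means ran most like it over the 10 groups were IAA11 (Pearson r = 0.866), ARF2 (0.777) and JAR1 (0.754), given as a description.

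AT1G54070, of the same family, had 17.5, 23.9 and 15.3 CPM at midnight on day 9, against 0.78, 2.56 and 0.577 CPM on day 0 (3.91 ± 0.53, adjusted p = 1.72e-06). On day 12 its midnight level was 106, 34.7 and 59.5 CPM, with all drought libraries far above day 0 (5.73 ± 0.52, adjusted p = 1.72e-09). AT2G04850, annotated as an auxin-responsive family protein, went the other way. At midnight on day 9 AT2G04850 had 1 count in 3 libraries, against 109 counts in the 3 day 0 libraries, which is 0, 0.134 and 0 CPM against 4.01, 3.99 and 5.19 CPM. The day 0 level was 108.4 times the day 9 level, with a 95% counting interval of 19.1 to 4320. At midday on day 12 it had no count, against 40 counts on day 0, so it was at least 13.37-fold lower. AT5G35735, with the same annotation, had 0.358, 0.268 and 0.689 CPM at midnight on day 9, against 3.45, 3.13 and 4.84 CPM on day 0, without overlap (-3.05 ± 0.41, adjusted p = 9.63e-07).

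Auxin loci differed by time of day in watered leaves too, at a share close to that of all loci. On day 0, 39 of the 80 tested loci (48.8%) differed between midnight and midday, 26 higher and 13 lower at midnight. Of all loci 43.9% were called, 22.9% higher and 21% lower. The count was 34 on day 4 (42.5%, 21 higher and 13 lower, with 41.9% of all loci). It was 43 on day 9 (53.8%, 27 and 16, with 49.5% of all loci). On day 12 it was 39 (48.8%, 24 and 15, with 54.7% of all loci). After re-watering it was 42 (52.5%, 30 and 12, with 47.1% of all loci). The carriers were higher at midnight on day 0, with 9 of 14 called higher and 0 lower, as were 7 of 17 ARFs with 0 lower. All 7 GH3 loci were called, 2 higher and 5 lower, and the SAUR-like loci gave 8 lower and 0 higher.

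GH3.1 showed the size of the GH3 day rhythm. On day 0 it had 12.6, 7.26 and 8.53 CPM at midnight, against 75.1, 42.1 and 71 CPM at midday (-2.72 ± 0.48, adjusted p = 7.72e-05). On day 9 it had 6.33, 7.24 and 7.35 CPM at midnight, against 188, 93 and 83.8 CPM at midday (-4.12 ± 0.50, adjusted p = 3.43e-07). Midnight was below midday in every library on both days. GH3.3, GH3.4, GH3.5 and GH3.17 were lower at midnight on day 0 as well, by log2 fold changes of -3.02, -3.29, -3.07 and -2.18. These are close relatives that may share reads, and the GH3.17 call on day 0 was lost without day 0 midday replicate 3 or day 0 midnight replicate 2 (adjusted p up to 0.154). The exceptions were GH3.10 (1.17 ± 0.26, adjusted p = 0.000791) and JAR1 (0.85 ± 0.23, adjusted p = 0.00432).

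The drought response itself differed between midnight and midday for 13 auxin loci on day 9, 7 with a higher and 6 with a lower fold change at midnight, where 24.3% of all loci were called, 10% higher and 14.2% lower. With upper quartile scaling it was 10 loci, 7 higher and 3 lower. The count was 8 without day 0 midday replicate 1 or replicate 3. On day 12 it was 16 loci, 9 higher and 7 lower, with 33.8% of all loci called, 15.2% higher and 18.6% lower. So the share of tested auxin loci called, 16.2% on day 9 and 20% on day 12, was below that of all loci on both days. The median absolute log2 value of the difference was 0.56 for auxin loci and 0.48 for all loci on day 9, and 0.70 and 0.58 on day 12. For day 4 against day 0 at midnight, where no auxin locus was called, the auxin median was also the larger (0.24 and 0.21). Many SAUR-like loci lay at a few CPM, where values are less precise. These medians therefore cannot show whether the differences were as large as those of other loci. PILS1 differed by 2.12 ± 0.44, adjusted p = 0.00102 on day 9 and by 3.80 ± 0.46, adjusted p = 7.71e-07 on day 12. For PILS3 the difference was 1.96 ± 0.49, adjusted p = 0.00462 on day 9 and 4.13 ± 0.55, adjusted p = 2.4e-06 on day 12. AT5G44300 was at the other end, at -2.20 ± 0.34, adjusted p = 4.33e-05 on day 9 and -3.04 ± 0.34, adjusted p = 1.74e-07 on day 12, its response being larger at midday.

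**Figure D4:**
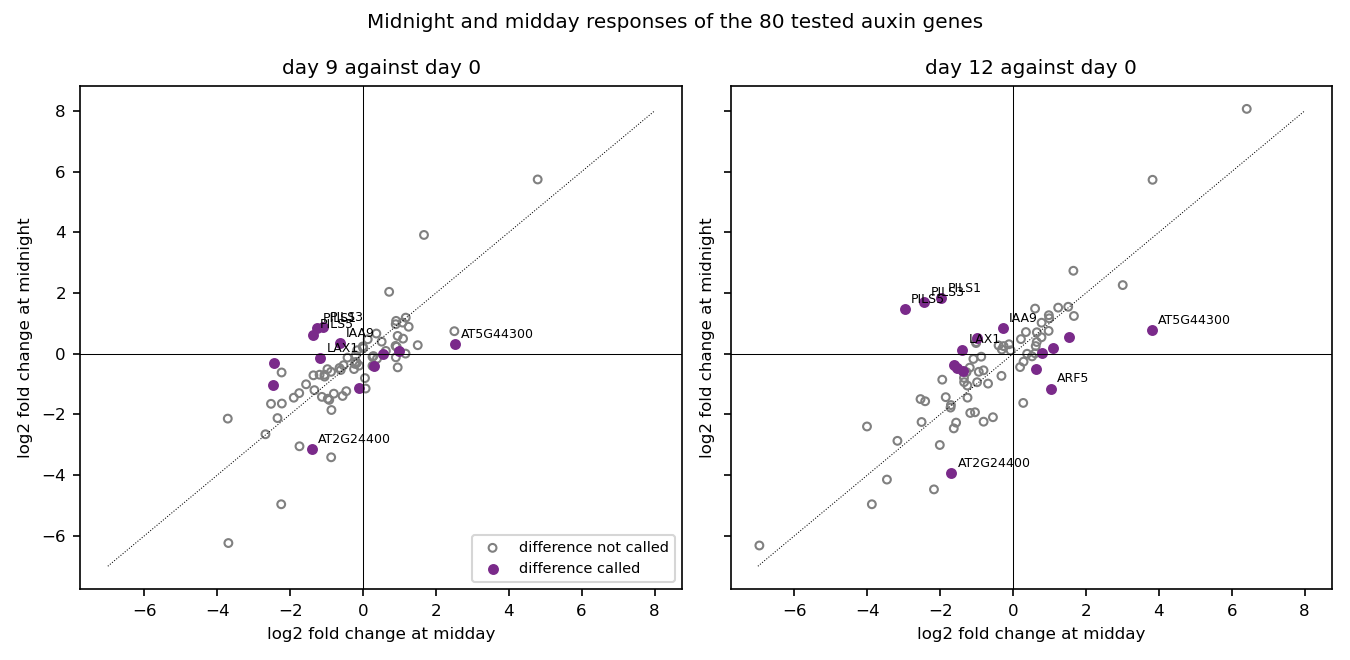
Log2 fold change against day 0 at midnight (y axis) and at midday (x axis) of each tested auxin locus on days 9 and 12 (2 panels), with loci whose difference was called in filled purple. PILS1, PILS3 and PILS5 sit in the upper left on day 12 (1.83, 1.69 and 1.47 at midnight; -1.97, -2.44 and -2.97 at midday), and AT5G44300 lies far right (3.82 at midday).

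Re-watering for 2 days was followed by changes that were mostly upward. Against day 12, 43 loci were called at midday, 31 higher and 12 lower, where 47.7% of all loci were called, 22.9% higher and 24.8% lower. At midnight it was 46 loci, 31 higher and 15 lower, where 42.9% of all loci were called, 22.3% higher and 20.6% lower. The medians were 0.56 at midday and 0.40 at midnight for auxin loci, and -0.08 and 0.01 for all loci. SAUR-like loci gave 10 higher and 1 lower call at midday and 14 higher and 1 lower at midnight. Transport loci gave 10 higher and 0 lower at midday, and 6 higher and 4 lower at midnight. Both comparisons use the day 12 libraries that were also set against day 0.

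AT4G38860 had 7.99, 11.4 and 8.78 CPM at midnight after re-watering, against 0.777, 2.05 and 1.73 CPM on day 12 (2.59 ± 0.39, adjusted p = 5.87e-06). PIN7 had 90.3, 84.6 and 86.4 CPM at midnight after re-watering, against 33.7, 40.7 and 32.8 CPM on day 12 (1.29 ± 0.18, adjusted p = 2.55e-06). The re-watered libraries of both loci were above all day 12 libraries. PILS1 at midnight fell to 35.9, 25.9 and 34.1 CPM after re-watering, against 114, 79.6 and 102 CPM on day 12 (-1.63 ± 0.27, adjusted p = 2.55e-05). AT5G44300 at midday fell to 22.9, 19.1 and 25.4 CPM, against 222, 132 and 237 CPM on day 12 (-3.13 ± 0.25, adjusted p = 1.25e-10).

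The GH3 loci after re-watering differed between the midday libraries. At midday 6 of 7 were called higher than on day 12 and 0 lower, where 22.9% of all loci were higher and 24.8% lower. GH3.1 had 242, 166 and 30.8 CPM after re-watering, against 34.6, 24.3 and 48.5 CPM on day 12 (2.03 ± 0.44, adjusted p = 0.000596). Re-watered replicates 1 and 2 were far above day 12, and replicate 3, the library of lowest correlation, was within the day 12 range. In GH3.3 and GH3.4 replicate 3 was likewise within the day 12 range, and in GH3.5 it was below that range. The GH3.1 call was kept with each of the 30 libraries left out in turn, and the GH3.17 call was lost without re-watered midday replicate 1 (adjusted p up to 0.0556). Mesophyll markers summed to 28657 to 86336.7 CPM in the re-watered midday libraries, and vascular markers to 722 to 1504 CPM. Without this library and day 0 midnight replicate 3 together, 42 auxin loci at midday and 47 at midnight were called against day 12.

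Set against day 0, re-watered leaves differed at 8 auxin loci at midday, 7 higher and 1 lower, where 6.85% of all loci were called, 4.09% higher and 2.75% lower. The count was 3 without day 0 midday replicate 1 or 3, 5 without re-watered midday replicate 2, 16 without re-watered midday replicate 1 (8 higher and 8 lower), and 0 in a fit of those 2 groups alone. At midnight 16 loci differed, 13 higher and 3 lower, where 19.6% of all loci were called, 8.28% higher and 11.3% lower. That count was 7 without day 0 midnight replicate 2, 10 without re-watered midnight replicate 1 or 3, and 10 in a fit of those 2 groups alone. ARFs gave 4 higher and 0 lower calls at midday, and 7 higher and 0 lower at midnight.

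ARF2 after re-watering had 439, 461 and 481 CPM at midnight, against 339.9, 239.8 and 265 CPM on day 0 (0.71 ± 0.14, adjusted p = 0.00139), and 289, 282 and 382 CPM at midday, against 177, 179.7 and 199 CPM (0.78 ± 0.14, adjusted p = 0.00269). ARF11 had 52.6, 49.3 and 58.2 CPM at midnight after re-watering, against 24.8, 18.4 and 18.8 CPM on day 0 (1.37 ± 0.17, adjusted p = 1.18e-05). Both ARFs remained above day 0 in every library. AT2G24400 stayed low at midnight, with 2.45, 1.8 and 2.72 CPM after re-watering, against 4.57, 7.83 and 7.5 CPM on day 0 (-1.5 ± 0.24, adjusted p = 0.000175), while at midday its groups overlapped (0.00 ± 0.24, adjusted p = 0.994).

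The authors' own fit is counted here at a q-value under 0.01, a stricter threshold than the adjusted p under 0.05 used above, so the counts are not set against each other. At midday on day 9 the authors' deposited table had 35 of 83 auxin loci (11 higher and 24 lower), and 4628 of 15115 loci in all. At midnight on day 9 the authors' deposited table had 26 of 83 (9 higher and 17 lower), and 5191 of 15115 in all. On day 4 the authors' deposited table had 0 auxin loci at both times. The loci in all were then 0 of 16741 at midday and 51 of 11817 at midnight, where 53 auxin loci had a q-value. At midday on day 12 the authors' deposited table had 46 of 83 (15 higher and 31 lower), and 6143 of 15115 in all. At midnight on day 12 the authors' deposited table had 39 of 83 (17 higher and 22 lower), and 6565 of 15115 in all.

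The second deposited table holds contigs of a Talinum assembly, and 135 contigs had 51 of the 83 loci as their best Arabidopsis match. By the authors' deposited table, 38 contigs had a q-value under 0.01 at midday on day 9. Of these, 27 had the sign of a called locus, 9 belonged to loci not called, and 2 went against the call of their locus, IAA11 and AT5G53590. The authors' deposited table has 34 such contigs at midnight on day 9, 28 with the sign of the called locus, 6 at loci not called and 0 opposite. For day 12 the authors' deposited table has 43 such contigs at midday, 33 with the sign of the called locus, 8 at loci not called and 2 opposite, at IAA11 and AT5G53590. At midnight on day 12 the authors' deposited table has 48, 36 with that sign, 10 at loci not called and 2 opposite, at PILS3 and PIN5. So the locus value can join contigs that differ.

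IAA11 had 2 contigs. In the authors' deposited table contig Tt6282 had a mean of 9 RPM (reads scaled to the library total) at midday on day 9 and 52.67 RPM on day 0, and at midnight 58 RPM on day 9 and 36.67 RPM on day 0. Contig Tt32558 had a mean of 5.667 RPM at midday on day 9 and 6.333 RPM on day 0 in the authors' deposited table, and 27.33 RPM at midday on day 12. The locus had been called higher at midday, against the direction of its larger contig. Of AT5G53590, a SAUR-like locus called lower at midday on day 9, the authors' deposited table gives contig Tt55830 75.67 RPM on day 9 and 11.33 RPM on day 0. RPM carries no TMM factor, so it is on another scale than the CPM above.

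**Figure D5:**
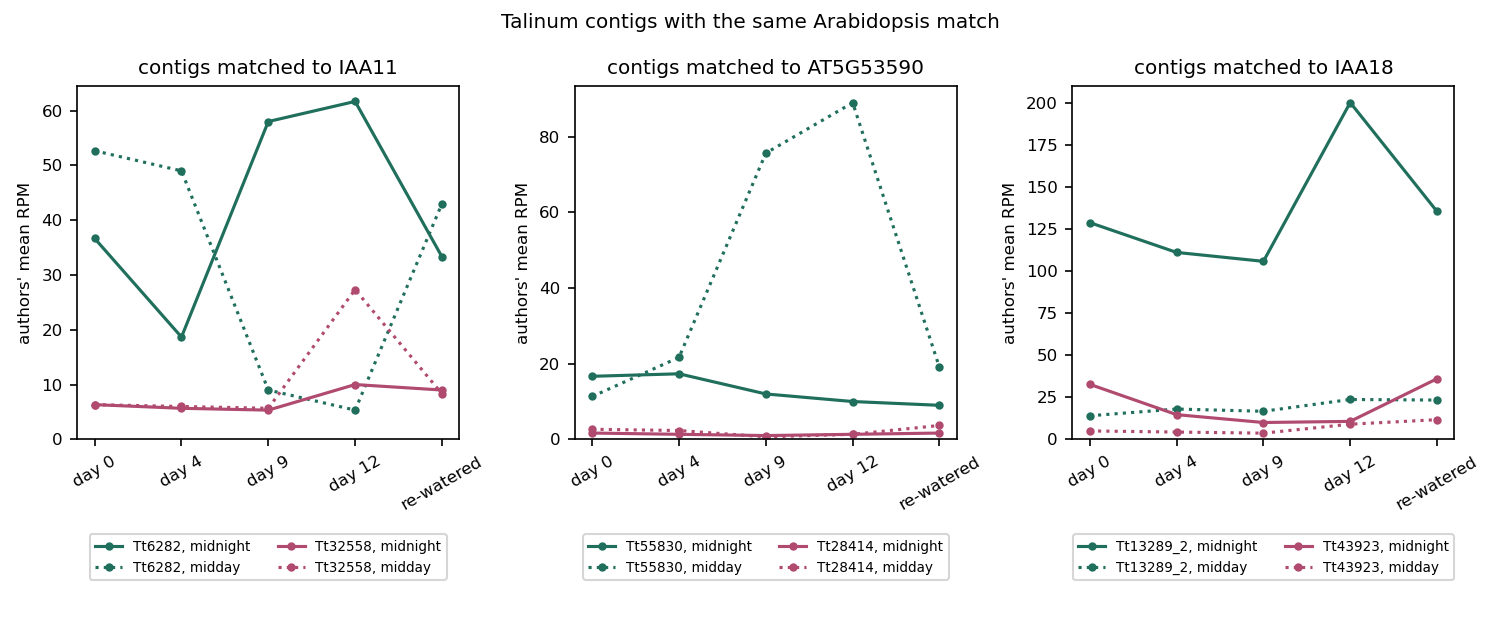
Authors' mean RPM (y axis, linear, no replicate error given) by stage (x axis) of the contigs of IAA11, AT5G53590 and IAA18, with solid lines for midnight and dotted lines for midday. Tt6282 of IAA11 is low at midday on days 9 and 12 (9 and 5.333 RPM) and high at midnight (58 and 61.67 RPM), while Tt32558 is at 27.33 RPM at midday on day 12.

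Contig Tt65432, the largest match of PILS3, moved in the directions of its locus in the authors' deposited table, with 6.667 RPM at midday on day 12 and 28.67 RPM on day 0, and 371.3 RPM at midnight on day 12 and 108.7 RPM on day 0. Contig Tt18581 of PILS3, the one opposite at midnight, was near 0, with a mean of 0 RPM on day 12 and 1.333 RPM on day 0 in the authors' deposited table (q = 0.003545). Contig Tt40743 of GH3.1 had 24.67 RPM at midnight and 368.7 RPM at midday on day 9 in the authors' deposited table. Contig Tt45433 of AT5G44300 had 652 RPM at midday on day 9 and 135.7 RPM on day 0 in the authors' deposited table.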

How the data were processed

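Leaf RNA was sequenced by the authors as single reads of 150 bp with 12 libraries per lane, and bases were called with CASAVA 1.8.2, per the submitters' processing notes and the labels' protocols. Reads were aligned by the authors with BLAT to Arabidopsis TAIR10 proteins, per the file headers, and counted once at the locus of the top hit. Raw counts per library and locus, as deposited, were tested here. Beside each count the deposited table gives a score, the rounded RPM, which was not tested. The deposited log2 fold changes and q-values came from the authors' DESeq2 (version not given in the sources used here). The deposited contig table holds the authors' mean RPM per group, without replicates. For the contigs, the mapping tool was not given in the sources used here. The 6 paired-end libraries were not analysed here, and no reference genome was used.

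Counts of all loci were tested with edgeR 4.0.16 in R 4.3.3 (TMM, filterByExpr, robust quasi-likelihood fit, 1 coefficient for each of 10 groups, 20 residual degrees of freedom, biological coefficient of variation 0.173). There were 17 contrasts, each adjusted by Benjamini-Hochberg over 14052 loci. The p-values rest on 1 spread per locus, estimated within groups over all 30 libraries and moderated across loci. They do not measure the spread of only the 3 libraries of a compared group, which can be wider. The labels do not describe the separate plants of these libraries further. Alternatives were DESeq2 1.42.0, limma-trend (limma 3.58.1), RLE and upper quartile scaling, testing without a filter, requiring 5 CPM in 3 libraries, only the groups compared, a replicate block, and each library left out. Leaving out both libraries of lowest correlation was chosen after seeing the data. Counting intervals and limits cover counting error only, since PCR copies were not marked. The procedure was tested on simulated counts.

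The members, roles and gene lists (11 lists with 169 loci, 117 tested) were chosen with earlier results of these data known. In each role the up to 4 members with the smallest adjusted p on day 9 were given in full, with other members where a result turned on them. Of the lists, up to 4 called loci per contrast could be named. AT1G16510, PIN2, PIN4, PIN5, PIN7, IAA11, ARF5, PILS5, PILS6, PILS7, GORK and LHCB3, and PILS3 on day 12, were chosen after their values were seen. One transport locus stays in the counts and is not reported here by name.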

Additional observations from a re-analysis of the deposited data

Results flagged for a closer look

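The drought response of the following loci differed between midnight and midday by a test of the difference itself (edgeR, a midnight log2 fold change against day 0 minus the midday one, with SE and Benjamini-Hochberg adjusted p over 14052 loci). The values are given without an explanation, and 3 libraries stand behind each group.

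On day 9 the difference was 2.12 ± 0.44 for PILS1 (adjusted p = 0.00102), 1.96 ± 0.49 for PILS3 (0.00462) and 1.99 ± 0.60 for PILS5 (0.0165), carriers of the endoplasmic reticulum that were lower than day 0 at midday, with fold changes of 0.85, 0.87 and 0.63 at midnight. The midnight fold change of PILS5 did not pass the test. LAX1 gave 1.03 ± 0.26 (0.00516) and IAA9 0.99 ± 0.19 (0.000436). Among SAUR-like loci AT4G38860 gave 1.45 ± 0.53 (0.0451), AT2G16580 gave 2.11 ± 0.75 (0.0404) and AT2G24400 gave -1.73 ± 0.41 (0.00311). AT5G44300 had the smallest adjusted p, at -2.20 ± 0.34 (4.33e-05). Other negative values on day 9 were -0.57 ± 0.17 for ARF1 (0.0144), -0.71 ± 0.24 for ARF16 (0.028), -1.01 ± 0.36 for AT1G75310 (0.0424) and -0.90 ± 0.33 for JAR1 (0.0441).

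Several of these day 9 differences did not hold with 1 library left out. For ARF1 the adjusted p was 0.0552 when day 0 midnight replicate 1 was left out. ARF16 was lost without day 0 midday replicate 1 or 3, day 0 midnight replicate 3, day 9 midday replicate 1 or day 9 midnight replicate 2 (up to 0.0796). JAR1 was lost without any 1 of 14 of the 30 libraries (up to 0.129) and AT4G38860 without any 1 of 13 (up to 0.118). AT2G16580 was lost without any 1 of 9 (up to 0.129) and AT1G75310 without any 1 of 8 (up to 0.119).

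On day 12 the differences were 3.80 ± 0.46 for PILS1 (7.71e-07), 4.13 ± 0.55 for PILS3 (2.4e-06) and 4.43 ± 0.71 for PILS5 (2.21e-05). These 3 loci may share reads of the same Talinum gene. AT5G44300 gave -3.04 ± 0.34 (1.74e-07), with a midnight fold change of 0.78 and a midday one of 3.82. Influx carriers LAX1 and LAX2 gave 1.53 ± 0.27 (6.68e-05) and 1.08 ± 0.25 (0.00141), IAA9 gave 1.12 ± 0.19 (4.93e-05) and IAA2 gave 1.23 ± 0.41 (0.021). The receptor AFB3 gave 1.5 ± 0.44 (0.0085) and the efflux carrier PIN7 gave 0.81 ± 0.29 (0.0303). AT2G24400 gave -2.23 ± 0.46 (0.000416), ARF5 -2.19 ± 0.46 (0.000574), ARF16 -1.13 ± 0.24 (0.00049), ARF1 -0.75 ± 0.17 (0.000968), PILS2 -0.99 ± 0.33 (0.0214) and JAR1 -0.91 ± 0.33 (0.0328). IAA2 was lost without day 0 midnight replicate 3 or day 12 midday replicate 1 or 2 (up to 0.0725), PILS2 without day 0 midday replicate 1, day 0 midnight replicate 1 or day 12 midnight replicate 2 (up to 0.107), PIN7 without any 1 of 6 libraries (up to 0.0923) and JAR1 without any 1 of 7 (up to 0.105).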

How the results depend on the processing

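Counts of auxin loci called moved by over 1.5 times in the following cases. With DESeq2, limma-trend or a filter of 5 CPM in 3 libraries, day 4 at midnight had 1 call in place of 0. It had 7 without both libraries of lowest correlation. The 5 CPM filter, which leaves fewer loci to test, gave 31 on day 9 at midday (14 higher and 17 lower, 47 before) and 33 on day 12 at midnight (17 higher and 16 lower, 50 before). A fit of only the groups compared, with fewer libraries, gave 0 for re-watered against day 0 at midday (8 before), 10 at midnight (16 before) and 28 for re-watered against day 12 at midday (43 before).

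With each library left out in turn the counts spanned, at midday and at midnight, 0 to 0 and 0 to 4 on day 4, 38 to 50 and 32 to 40 on day 9, 49 to 56 and 45 to 52 on day 12, 3 to 16 and 7 to 18 for re-watered against day 0, and 34 to 46 and 36 to 47 for re-watered against day 12. For midnight against midday they spanned 32 to 40 on day 0, 28 to 37 on day 4, 38 to 47 on day 9, 37 to 42 on day 12 and 37 to 45 after re-watering, and for the difference between midnight and midday responses 8 to 14 on day 9 and 13 to 19 on day 12. Of 526 calls of single loci, 385 were kept in all of these fits and 141 were lost in at least 1, and no value changed sign.

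The replicate numbers did not pair libraries, since 20 of 135 pairs with the same number correlated above 0.1 (range -0.41 to 0.378) and 13 of 30 libraries correlated best with their own number. The fit with a replicate block called 46 and 37 loci on day 9 at midday and midnight, 52 and 49 on day 12, 8 and 16 for re-watered against day 0, 41 and 44 against day 12, and 11 and 16 for the differences on days 9 and 12. Many SAUR-like loci lay at a few CPM, which limits their precision.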
